A study of Mus musculus with 10 samples.

Results

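This comparison set the ischaemic kidney against the opposite kidney in mice that carried the deletable Ihh allele but were never given the deleting drug. The mice, labelled Pax8creERT2;Ihhfl/fl, carried floxed Ihh and a tamoxifen-dependent Cre-ERT2 under Pax8, a gene active in renal tubule epithelium. They form the vehicle arm of the study, were 8 weeks old and received no tamoxifen according to the injured sample's label. Blood flow to the kidney was stopped on 1 side for 15 minutes by ligation of the renal artery, and kidneys were taken 2 weeks later. The 4 libraries of injured kidney and the 4 libraries of contralateral kidney were chosen by these labels alone and make up 8 of the 32 bulk RNA libraries, or 2 of the 10 samples, of the series. The reference is the other kidney of injured mice, which was not made ischaemic but does not come from an uninjured animal. Whether the 4 columns of each group come from separate animals is not stated in the labels, and p-values therefore measure only the spread between these libraries.

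Ischaemia followed by returning blood flow damages the proximal tubule above all, because these cells burn fatty acids and have little capacity for glycolysis. Surviving tubule cells dedifferentiate and divide, and most recover, while those that do not recover keep an inflamed state in which NF-kB target genes stay active. Such cells recruit leukocytes and stimulate fibroblasts that lay down collagen, and Hedgehog ligands from epithelium act on the neighbouring fibroblasts through Patched receptors and Gli transcription factors.

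The injured libraries held 18.2 M to 23.1 M counts and the contralateral libraries 25.5 M to 37.9 M. Contralateral library 2 stood apart from the other 3: it held the most counts, had a TMM scaling factor of 0.714 against 0.895 to 0.931, and was the furthest of the 4 from their median in 63.7% of the genes called. Its levels also followed transcript length. Over genes tested with a mean log2 CPM of 1 or more, its median log2 difference from the other 3 libraries was 1.09 under 1000 bases and -0.83 over 8000 bases. Each count of a gene list in the comparison of the kidneys was therefore also made without this library, and it is given where it moved by more than 1.5 times and for the immediate early genes. Mitochondrial transcripts took 1.35% to 2.94% of counts in the injured and 3% to 5.55% in the contralateral libraries. Values below are CPM, counts scaled to the library total and by TMM factors, which do not allow for gene length, and each log2 difference is injured minus contralateral with its standard error (SE).

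A majority of the genes tested differed between the kidneys. In edgeR's quasi-likelihood test, 8429 of 15986 genes tested (52.7%) had a Benjamini-Hochberg adjusted p under 0.05. Of these 4198 (26.3%) were higher and 4231 (26.5%) lower in the injured kidney. The 4 injured libraries lay above all 4 contralateral libraries in 4115 genes (25.7%) and below them in 4383 (27.4%). The sizes were uneven: 1272 genes were more than 4-fold higher and 264 more than 4-fold lower, and 509 against 24 passed 8-fold. Without contralateral library 2 the test called 8981 of 16329 genes, 4539 (27.8%) higher and 4442 (27.2%) lower. Counts of list members are read against these shares. In bulk RNA, fewer cells of a type and less RNA per cell cannot be told apart.

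Promoters of 4 cytokine genes are shown because the inflammatory response described below is led by genes of this kind, all of which rose, and because each holds a match to the NF-kB consensus. The sequences are the 250 bases before the start of the gene, from RefSeq on GRCm38.p6, plus strand, with the NF-kB match in capitals: Cxcl2 at chr5:90903649-90903898, Cxcl1 at chr5:90890995-90891244, Il6 at chr5:30012864-30013113 and Ccl20 at chr1:83116516-83116765.
Cxcl2: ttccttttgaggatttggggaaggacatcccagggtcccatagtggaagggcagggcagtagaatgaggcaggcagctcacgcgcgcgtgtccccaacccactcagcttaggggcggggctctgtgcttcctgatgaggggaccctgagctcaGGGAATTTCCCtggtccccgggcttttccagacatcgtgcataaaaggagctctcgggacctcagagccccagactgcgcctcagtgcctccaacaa
Cxcl1: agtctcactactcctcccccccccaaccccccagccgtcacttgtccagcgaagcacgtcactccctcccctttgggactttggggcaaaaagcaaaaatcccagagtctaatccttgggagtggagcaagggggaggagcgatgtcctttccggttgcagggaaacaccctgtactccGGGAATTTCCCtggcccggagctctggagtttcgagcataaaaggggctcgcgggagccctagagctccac
Il6: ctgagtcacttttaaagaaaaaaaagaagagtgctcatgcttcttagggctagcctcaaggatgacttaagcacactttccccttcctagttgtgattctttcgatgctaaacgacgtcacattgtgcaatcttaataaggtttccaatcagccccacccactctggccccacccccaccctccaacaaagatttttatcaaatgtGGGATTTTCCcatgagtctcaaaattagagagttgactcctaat
Ccl20: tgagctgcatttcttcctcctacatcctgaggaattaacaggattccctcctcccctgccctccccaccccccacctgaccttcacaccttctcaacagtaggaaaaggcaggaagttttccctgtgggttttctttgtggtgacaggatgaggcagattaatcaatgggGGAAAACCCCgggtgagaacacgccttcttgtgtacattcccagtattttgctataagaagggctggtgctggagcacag
The neutrophil chemokine genes Cxcl2 and Cxcl1 carry the same 11 capital letters, from 97 to 87 bases before the start in Cxcl2 and from 71 to 61 in Cxcl1. In Il6 the match lies 44 to 35 bases before the start, and in Ccl20 it lies 80 to 71 bases before it. Searched on both strands, the NF-kB consensus was found in 11 of the 20 promoters available for the TNF and NF-kB list genes that rose (55%), namely in Cxcl2, Cxcl1, Il6, Ccl20, Tnfaip3, Ltb, Cxcl10, Csf1, Nfkbie, Nfkb2 and Nfkbia. Among all genes tested it was found in 1242 of 11743 promoters (10.6%), among genes that rose in 13.3% and among genes that fell in 9.41%. The AP-1 motif TGANTCA, counted whether or not it overlaps an NF-kB match, was found in 5 of those 20 promoters (25%) and in 5.94% of all. A match describes the letters in this window and is not a measured binding site, and many list genes are textbook NF-kB targets.

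Most listed genes of the damaged tubule were higher in the injured kidney, but not Havcr1, its best known marker. Of 23 tubular injury genes tested, 18 rose and 2 fell, with a median log2 difference of 1.47 beside 0.03 for all genes. Lcn2, the lipocalin that damaged distal tubules secrete, stood at 50.1, 91.1, 78.8 and 71.3 CPM in the 4 injured and at 3.45, 5.91, 19.7 and 5.05 CPM in the 4 contralateral libraries. All injured libraries lay above all contralateral ones, although contralateral library 3 held more Lcn2 than the other 3 together (log2 3.09, SE 0.49, adjusted p = 0.00223). Without that library the difference of Lcn2 was 3.91.

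Sox9, a transcription factor of regenerating tubule cells, stood at 39.9, 31.7, 20.8 and 25.1 CPM in the injured and 2.77, 0.997, 2.59 and 1.67 CPM in the contralateral libraries, with no overlap (log2 3.87, SE 0.33, adjusted p = 0.00032). Krt20, a keratin of injured tubule, stood at 12.3, 7.65, 2.95 and 4.34 CPM in the 4 injured and at 0.32, 0.628, 0.756 and 0.483 CPM in the 4 contralateral libraries, with the groups apart (log2 3.63, SE 0.48, adjusted p = 0.00115). Vcam1, an adhesion molecule that marks proximal cells which have not recovered, stood at 450, 250, 117 and 241 CPM in the injured and 22.4, 30, 15.4 and 19.3 CPM in the contralateral libraries. The lowest injured library of Vcam1, library 3, was still above the highest contralateral value (log2 3.60, SE 0.37, adjusted p = 0.000609). Cd44, the hyaluronan receptor, rose by 3.60, Vim, the mesenchymal filament vimentin, by 2.48, and Cdkn1a, the cell cycle inhibitor p21, by 2.22.

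Havcr1, the gene of the tubular injury molecule KIM-1, which is strongly induced early after ischaemia, stood at 48.2, 27.8, 9.77 and 8.19 CPM in the 4 injured and at 7.1, 15, 25.3 and 14.1 CPM in the 4 contralateral libraries. Injured libraries 1 and 2 were above every contralateral library and injured libraries 3 and 4 below 3 of them, so the groups overlapped and the gene was not called (log2 0.61, SE 0.58, adjusted p = 0.39). Without injured library 1 the difference of Havcr1 was 0.01. The keratin Krt8 was also not called (log2 0.32, adjusted p = 0.202), but passed without contralateral library 2 at 0.56. Against the direction of the list, Itgb6, the integrin subunit that activates TGF-beta, fell with log2 -0.82 (adjusted p = 0.0124), and Igfbp7, a secreted factor linked to tubule cell cycle arrest, fell with log2 -0.82 (adjusted p = 0.0356). The call of Igfbp7 was lost without injured library 1, 2 or 3, at -0.73, -0.73 and -0.76. With each library adjusted for a trend on transcript length Igfbp7 stood at -0.13 (adjusted p = 0.538).

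**Figure D1:**
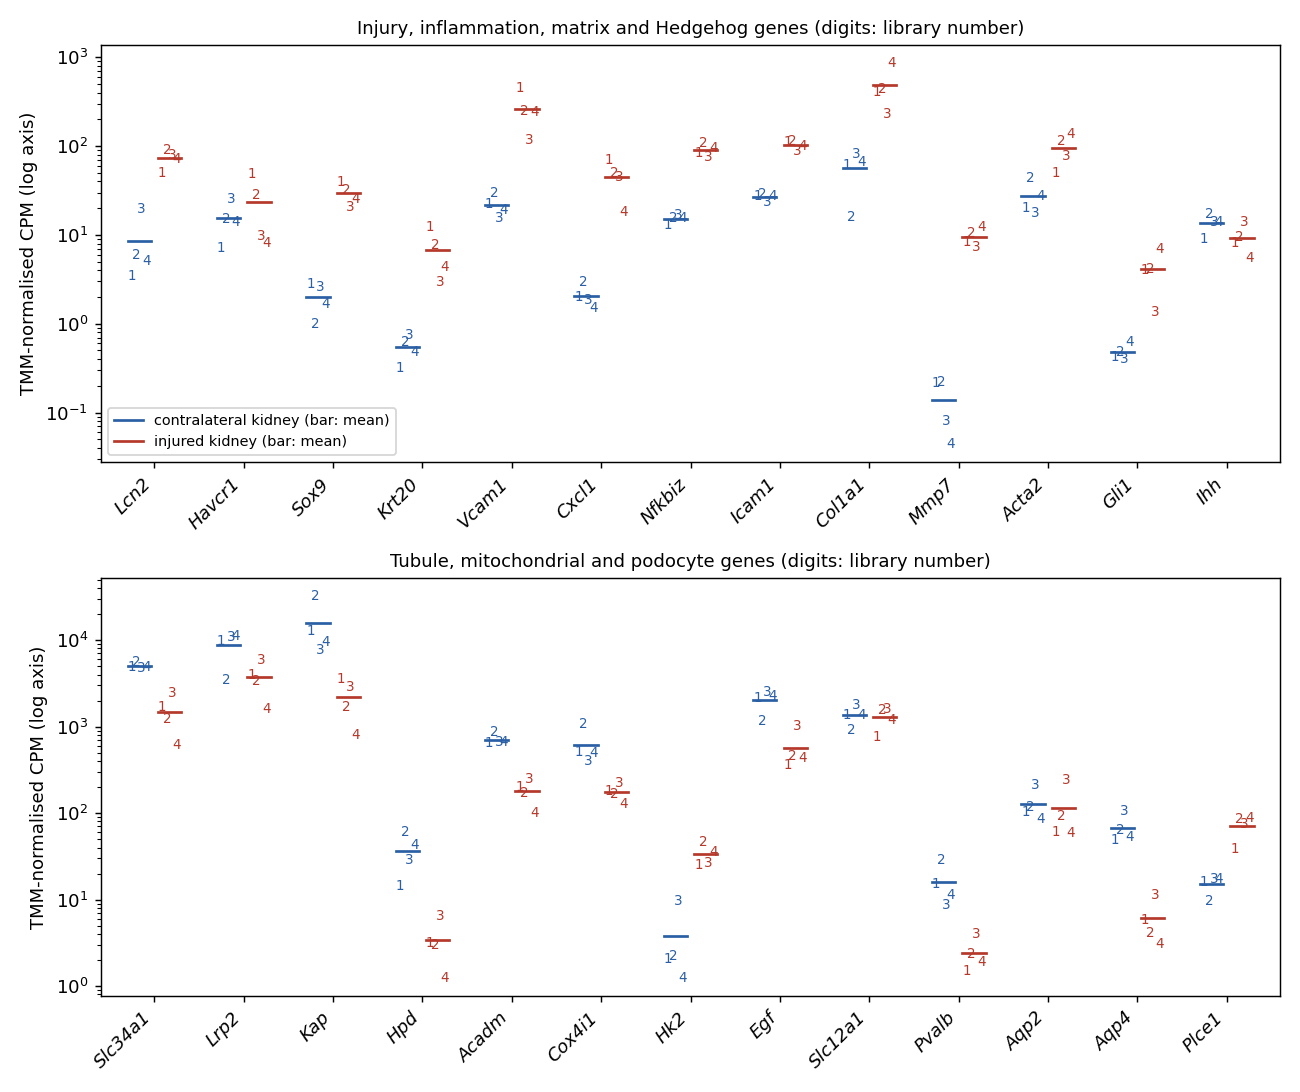
TMM-normalised CPM on a log axis for 26 genes, with each digit the library of that number, blue for contralateral and red for injured kidney, and bars for the mean of 4 libraries. Sox9, Cxcl1, Mmp7 and Hk2 separate fully, Havcr1, Slc12a1, Aqp2 and Ihh overlap, and Lrp2 overlaps through contralateral library 2, at 3414 CPM.

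TNF and NF-kB response genes rose almost without exception. Of 31 listed genes 29 were tested, and 28 rose and 0 fell, with a median of 2.58 and of 2.80 without contralateral library 2. Cxcl5, a neutrophil chemokine of epithelium, was all but missing from the contralateral kidney, at 5.11, 6.08, 2.32 and 4.07 CPM in the injured and 0.0355, 0.0369, 0.0398 and 0.0439 CPM in the contralateral libraries. This rests on 409 counts in the injured against 4 in the contralateral libraries, a ratio of 112 with a 95% counting interval of 43.4 to 413. The neutrophil chemokine Cxcl2 stood at 6.7, 7.96, 5.39 and 3.19 CPM in the 4 injured and at 0.178, 0.185, 0.279 and 0.219 CPM in the 4 contralateral libraries (log2 4.73, SE 0.37, adjusted p = 0.000203). Its neighbour Cxcl1 stood at 69.2, 49.5, 44.3 and 17.9 CPM in the injured and 2.02, 2.95, 1.83 and 1.49 CPM in the contralateral libraries (log2 4.44, SE 0.38, adjusted p = 0.000351). In both chemokines injured library 4 was the lowest of the 4 injured libraries and still lay above the contralateral range.

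Tnf itself, a cytokine that can induce such genes, was rare. It stood at 4.27, 1.92, 1.77 and 6.25 CPM in the injured and at 0.142, 0.96, 0.0398 and 0.176 CPM in the contralateral libraries. Whether Tnf started the response was not tested. All injured libraries lay above all contralateral ones, with contralateral library 2 far above the rest of its group (log2 3.39, SE 0.79, adjusted p = 0.00764). Without it the difference of Tnf was 4.84. Of the receptors, Tnfrsf1b, found mainly on leukocytes, rose by 2.99, and Tnfrsf1a, found on most cells, by 0.50 (adjusted p = 0.0238) with overlapping groups. Tnfrsf1a was not called without contralateral library 1, 3 or 4, at 0.48, 0.41 and 0.45. The monocyte chemokine Ccl2 rose by 3.59, the cytokines Il6 and Il1b by 3.53 and 3.19, and Ccl20, which attracts lymphocytes and dendritic cells, by 3.43, or by 4.96 without contralateral library 2.

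Nfkbiz, a nuclear regulator of secondary NF-kB targets, stood at 82.5, 107, 75.5 and 94 CPM in the injured and 12.8, 15.3, 16.8 and 15.4 CPM in the contralateral libraries (log2 2.57, SE 0.15, adjusted p = 0.000118). Icam1, the leukocyte adhesion molecule, stood at 110, 114, 87.5 and 101 CPM in the 4 injured and at 27.2, 28.6, 23.2 and 27.4 CPM in the 4 contralateral libraries (log2 1.96, SE 0.13, adjusted p = 0.000118). In both genes the injured values lay close together and far above every contralateral value. Tnfaip3, the ubiquitin-editing inhibitor A20, rose by 2.88 (SE 0.20), Birc3, an anti-apoptotic ubiquitin ligase, by 2.65 (SE 0.19), and Nfkbia, the inhibitor that holds NF-kB in the cytoplasm, by 1.77 (SE 0.18). Tnfaip2 was not called, at log2 0.34, and the cytokines Lta and Csf2 fell below the filter on low counts. Macrophages and lymphocytes use the same genes, and their markers rose in the same libraries, as given below; the part of those cells in this list was not tested.

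Immediate early genes, which respond within minutes to stress and also to the handling of tissue, rose in 12 of 16 with 0 lower, at a median of 1.06. Atf3, a stress-induced transcription factor, stood at 20.5, 21.2, 22.2 and 27.7 CPM in the injured and 1.74, 3.73, 1.19 and 0.79 CPM in the contralateral libraries (log2 3.61, SE 0.40, adjusted p = 0.000727). No injured value of Atf3 came near the contralateral range, and its 4 injured values differed little. Klf6, another factor induced in injured tubule, rose by 2.50, the nuclear receptor Nr4a1 by 2.68 and Egr1 by 2.06. Contralateral library 2 was the highest of its group in several of these genes, and without it 15 of the 16 rose.

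Scar genes rose broadly, most in injured library 4 and least in injured library 3. Of 20 collagens 15 rose and 0 fell (median 1.64), and of 22 matrix proteins and matrix-modifying enzymes 19 rose and 1 fell (median 2.25). Col1a1, the main chain of fibrillar collagen I, stood at 403, 439, 228 and 866 CPM in the 4 injured and at 60.5, 15.9, 81.9 and 65.6 CPM in the 4 contralateral libraries. The groups were apart, injured library 4 was the highest, and contralateral library 2 was far below the other 3 (log2 3.11, SE 0.51, adjusted p = 0.00253). Its partner Col1a2 rose by 2.63, Col3a1, the collagen of early scar, by 2.77, and Col12a1, which sits on fibril surfaces, by 2.97. The basement membrane collagens of the list did not pass: Col4a1 stood at log2 0.67 (adjusted p = 0.0516), and the glomerular chains Col4a3 and Col4a4 at -0.33 and -0.19.

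Among matrix enzymes the largest difference was in Mmp7, a metalloproteinase that injured tubule secretes, at 8.25, 10.4, 7.25 and 12.2 CPM in the injured and 0.213, 0.222, 0.0796 and 0.0439 CPM in the contralateral libraries. With 890 counts in the injured and 15 in the contralateral libraries, the ratio of Mmp7 counts was 64.9 (95% counting interval 39.2 to 117), and the fitted log2 difference was 6.01 (SE 0.44, adjusted p = 0.000141). The stromelysin Mmp3 rose by 4.09, the wound glycoprotein Tnc by 3.12 and the metalloproteinase inhibitor Timp1 by 2.37. Timp3, the matrix-bound inhibitor that normal kidney makes in quantity, went the other way at 1753, 1644, 2252 and 1329 CPM in the 4 injured and at 3187, 3864, 3741 and 3979 CPM in the 4 contralateral libraries. Every injured value of Timp3 was below every contralateral value (log2 -1.08, SE 0.25, adjusted p = 0.0069).

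Of 13 TGF-beta pathway genes 10 rose and 1 fell (median 1.21). Ltbp2, a microfibril protein of the latent TGF-beta binding family, stood at 94.2, 90.7, 36.1 and 131 CPM in the injured and 4.33, 0.886, 4.7 and 2.9 CPM in the contralateral libraries (log2 4.78, SE 0.49, adjusted p = 0.00066). Its lowest injured value, in library 3, was far above the highest contralateral one. Grem1, a secreted BMP antagonist, rose by 3.48, the activin subunit Inhba by 3.31, and the ligands Tgfb2 and Tgfb1 by 2.69 and 1.05. Bmp7, a tubule-derived ligand that opposes TGF-beta, fell with log2 -0.69 (adjusted p = 0.0162), and lost the call without injured library 2, at -0.64 with an adjusted p of 0.0511, and without injured library 4, at -0.58.

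Fibroblast and mural cell genes rose in 14 of 17, with 0 lower and a median of 1.52. Acta2, the smooth muscle actin of myofibroblasts and arterioles, stood at 49.4, 115, 77.5 and 136 CPM in the 4 injured and at 20.2, 43.5, 17.6 and 27.1 CPM in the 4 contralateral libraries (log2 1.80, SE 0.36, adjusted p = 0.0042). Injured library 1, the lowest of its group, was just above contralateral library 2, the highest of the other. The fibroblast genes Dpt, Thy1 and Fap rose by 3.17, 2.40 and 2.06, and the pericyte regulator Rgs5 by 1.52 with the small SE of 0.15. Pdgfra, a receptor of interstitial fibroblasts, rose by 1.29 with overlapping groups (adjusted p = 0.0251), and was not called without contralateral library 2 or 3 or injured library 4, at 1.26, 1.16 and 0.95. Its relative Pdgfrb, shared by pericytes, was not called (log2 0.81, adjusted p = 0.0963).

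Of the Hedgehog pathway 6 of 15 genes rose and 1 fell, or 2 without contralateral library 2, with a median of 0.38. Ihh, the ligand whose gene is floxed in these mice, stood at 8.12, 9.39, 14 and 5.54 CPM in the injured and 8.95, 17.1, 13.9 and 14.1 CPM in the contralateral libraries. The groups overlapped, with injured library 3 within the contralateral range, and Ihh was not called (log2 -0.54, SE 0.30, adjusted p = 0.154). Of the other ligands Shh stayed near or below 1 CPM and not called (log2 0.38, adjusted p = 0.336), while Dhh, also low, rose by 1.56 (adjusted p = 0.00755).

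Downstream, the readouts split. Gli1, the transcription factor that is itself a Hedgehog target in fibroblasts, stood at 4.06, 4.16, 1.34 and 6.87 CPM in the 4 injured and at 0.426, 0.48, 0.398 and 0.615 CPM in the 4 contralateral libraries. All injured libraries were above all contralateral ones, with library 3 the lowest and library 4 the highest of the injured (log2 3.09, SE 0.47, adjusted p = 0.00174). Ptch1, the receptor and the other standard target, stood at 53.9, 70.2, 74 and 67.3 CPM in the injured and 85.9, 58, 98.6 and 83.6 CPM in the contralateral libraries, with overlapping groups and no call (log2 -0.30, SE 0.18, adjusted p = 0.181). Without contralateral library 2 Ptch1 was lower in the injured kidney at log2 -0.44 (adjusted p = 0.0201).

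The repressor-forming factor Gli3 rose by 2.08, and the co-receptors Cdon and Boc by 1.69 and 1.05. Hhip, a decoy receptor and target, was not called at log2 0.92 (adjusted p = 0.298), with a value of 1.56 without contralateral library 3 and of 0.14 without injured library 1. Gli2 and the signal transducer Smo were not called, at 0.13 and -0.25. Sufu, which restrains Gli proteins, stood at 46.7, 41.8, 48.9 and 36.6 CPM in the 4 injured and at 76.6, 67.5, 74.1 and 77 CPM in the 4 contralateral libraries. Every injured value of Sufu was below every contralateral value (log2 -0.76, SE 0.12, adjusted p = 0.00196).

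**Figure D2:**
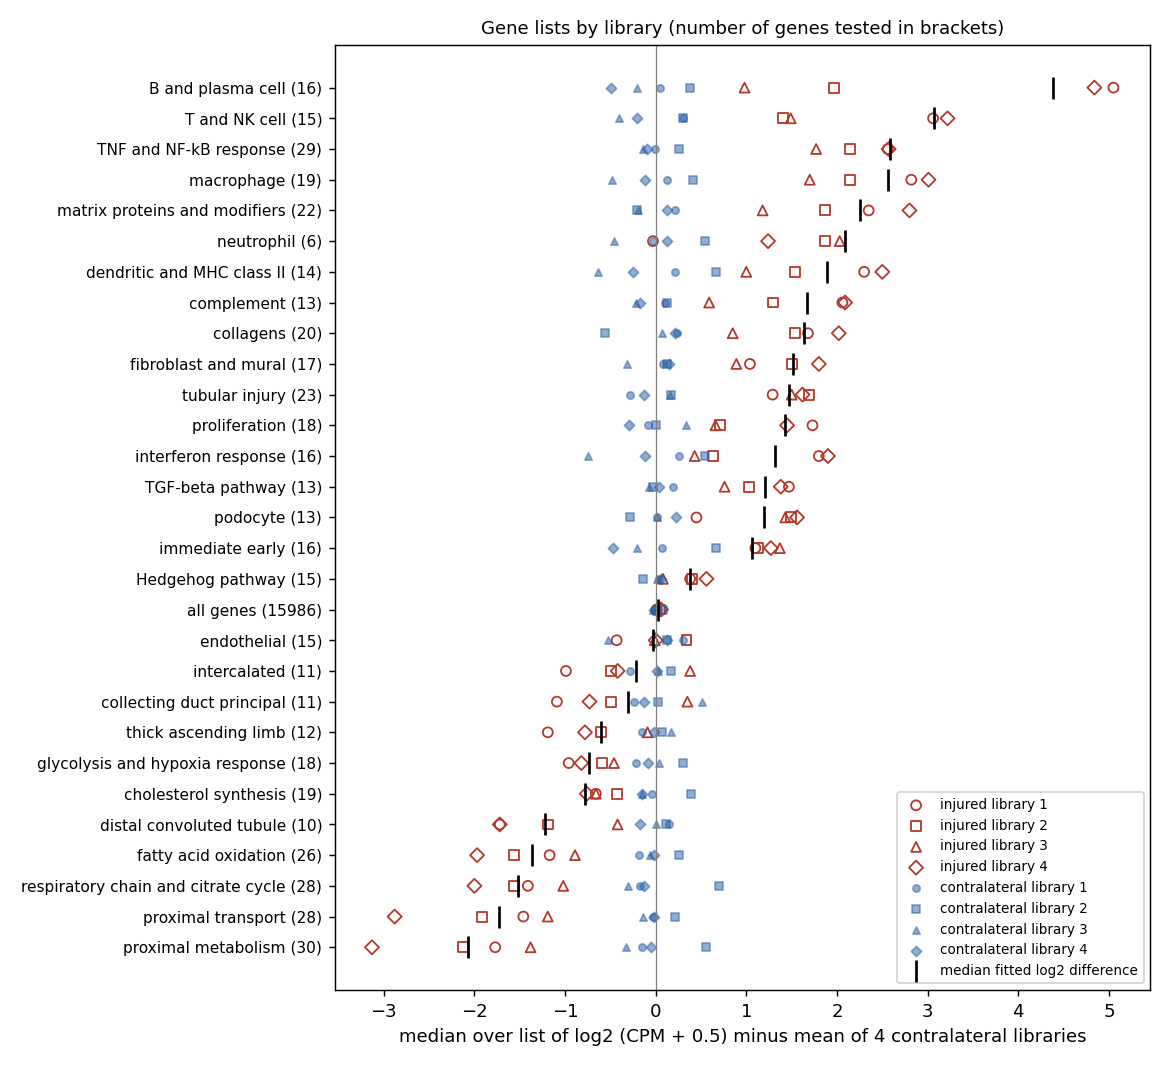
Median over the genes of each list of log2 (CPM + 0.5) in a library minus the mean of the 4 contralateral libraries, with red symbols for injured and blue for contralateral libraries and a black bar for the median fitted log2 difference. Of the lists drawn, that of B and plasma cells spreads most among injured libraries, from 0.98 in library 3 to 5.05 in library 1, and proximal metabolism runs from -1.38 in library 3 to -3.13 in library 4.

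Macrophage, dendritic cell and lymphocyte genes were mostly higher in the injured kidney. Of 19 macrophage genes 18 rose (median 2.56), of 14 dendritic cell and MHC class II genes 13 rose (median 1.89), of 15 T and NK cell genes 14 rose (median 3.07) and of 16 B and plasma cell genes 15 rose (median 4.38). None of these lists held a gene that fell. Gpnmb, a glycoprotein of lipid-laden and scar-associated macrophages, stood at 22.5, 26.6, 7.76 and 35.8 CPM in the injured and 0.71, 0.222, 0.597 and 0.615 CPM in the contralateral libraries (log2 5.42, SE 0.49, adjusted p = 0.000415). Trem2, the lipid receptor of the same cells, stood at 10.1, 10.3, 8.31 and 16.6 CPM in the 4 injured and at 0.568, 0.702, 0.557 and 0.615 CPM in the 4 contralateral libraries (log2 4.20, SE 0.27, adjusted p = 0.000118). Both were below 1 CPM in every contralateral library, and injured library 3 was the lowest and library 4 the highest of the injured. Siglec1 and the mannose receptor Mrc1 rose by 4.09 and 3.59, while Mertk, the receptor for dying cells, stood at log2 0.07 and was not called.

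Antigen presentation genes followed. Flt3, the growth factor receptor of dendritic cells, rose by 3.36, the class II regulator Ciita by 2.52 and the integrin Itgax by 2.45. H2-Aa, a class II chain, rose by 1.99 with overlap through contralateral library 2, and by 2.60 without it. Of 13 complement genes 9 rose and 1 fell (median 1.67). C3, the central component, stood at 540, 628, 331 and 909 CPM in the injured and 51, 33, 106 and 51.2 CPM in the contralateral libraries, with all injured values above all contralateral ones (log2 3.32, SE 0.39, adjusted p = 0.000912). Cfb, the factor B that tubule cells also make, fell at 301, 161, 214 and 120 CPM in the 4 injured and at 590, 767, 414 and 487 CPM in the 4 contralateral libraries, with no overlap (log2 -1.51, SE 0.30, adjusted p = 0.00418).

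The T cell genes named here were all higher in injured libraries 1 and 4 than in injured libraries 2 and 3. Il7r, the receptor for the survival factor of memory T cells, stood at 41.9, 17.6, 10.6 and 36.4 CPM in the injured and 1.42, 1.77, 0.677 and 0.395 CPM in the contralateral libraries (log2 4.62, SE 0.53, adjusted p = 0.000882). Cd4 and Cd3e rose by 3.81 and 3.70, the costimulatory receptor Cd28 by 4.11, and Foxp3, the factor of regulatory T cells, by 2.90. The inhibitory receptors Ctla4 and Pdcd1 were among the 12 largest rises of all, at 6.27 and 5.48, and Pdcd1 stood at 6.18 without contralateral library 1. Ctla4 rests on 724 counts in the injured against 10 in the contralateral libraries.

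Ighm, the heavy chain of IgM, stood at 3575, 277, 41.1 and 3575 CPM in the 4 injured and at 30.5, 66.6, 9.43 and 6.63 CPM in the 4 contralateral libraries. Injured libraries 1 and 4 were far above every contralateral library, whereas injured library 3 was below contralateral library 2 (log2 6.04, SE 1.18, adjusted p = 0.00804). Immunoglobulin transcripts took 1.41%, 0.278%, 0.061% and 1.61% of counts in injured libraries 1 to 4 and 0.00982% to 0.0581% in the contralateral libraries. The B cell transcription factor Pax5 rose by 4.54, and Cxcl13, the chemokine that gathers B cells into follicles, by 5.47. In 8 of the 16 B and plasma cell genes all injured libraries lay above all contralateral ones, beside 25.7% of all genes tested. Single libraries moved these sizes: Ighm stood at 6.90, Igkc at 5.41 and Jchain at 4.99 without contralateral library 2, and Pax5 at 3.73 and Jchain at 2.97 without injured library 1. Jchain was not called without contralateral library 1 (log2 3.42, adjusted p = 0.0566). Reads of immunoglobulin constant regions can be shared between near-identical genes.

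Few neutrophil genes could be tested. Of 11 listed genes 6 were tested, 2 rose, Mmp9 by 2.30 and Csf3r, the growth factor receptor, by 2.26, and 5 rose without contralateral library 2. S100a8, an abundant neutrophil protein, stood at 1.21, 7.69, 13.9 and 5.45 CPM in the injured and 0.497, 5.76, 0.637 and 1.93 CPM in the contralateral libraries, lowest in injured library 1 and highest in injured library 3 (log2 1.68, SE 0.85, adjusted p = 0.128). Without contralateral library 2 S100a8 passed, at 2.79 (adjusted p = 0.0267), and so did its partner S100a9, at 2.92 (adjusted p = 0.037) against 1.93 with all libraries. The neutrophil genes Elane, Mpo, Camp, Ngp and Ly6g were at or near 0 CPM in all libraries and not tested.

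Interferon response genes rose in 11 of 16 (median 1.32). In 3 of these 16 all injured libraries lay above all contralateral ones, beside 25.7% of all genes tested. Mx1, an antiviral GTPase, rose by 2.32, Oas2 by 2.13, Zbp1 by 2.04 and Oasl2 by 1.79, each highest in injured libraries 1 and 4. Proliferation genes rose in 15 of 18 (median 1.43). Top2a, the topoisomerase of dividing cells, stood at 74.6, 22.5, 20.1 and 52.5 CPM in the 4 injured and at 7.81, 8.38, 12 and 7.33 CPM in the 4 contralateral libraries (log2 2.25, SE 0.41, adjusted p = 0.00307). It too was highest in injured libraries 1 and 4 and lowest in libraries 2 and 3, and the kinds of cell that divided were not measured. Mki67, Bub1 and the replication helicase subunit Mcm6 rose by 2.21, 2.18 and 2.11.

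**Figure D3:**
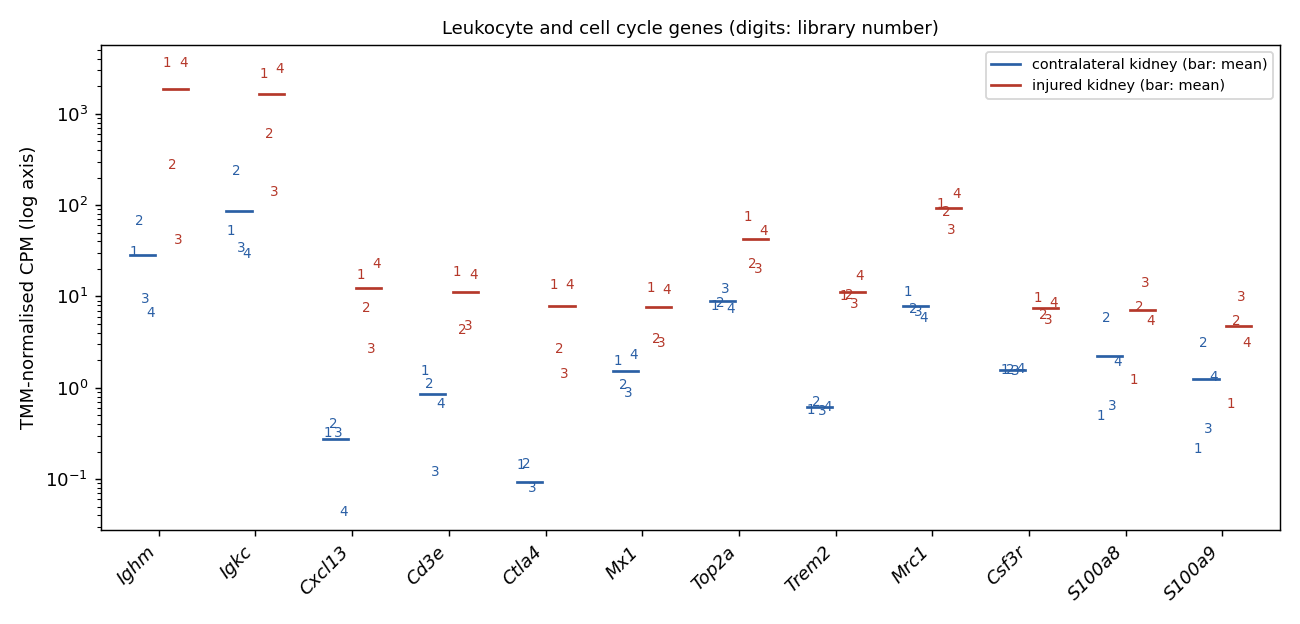
TMM-normalised CPM on a log axis for 12 leukocyte and cell cycle genes, with each digit the library of that number, blue for contralateral and red for injured kidney, and bars for the mean of 4 libraries. Ighm, Cd3e, Mx1 and Top2a are high in injured libraries 1 and 4, S100a8 and S100a9 are highest in injured library 3, and Ctla4 in contralateral library 4 is 0 and not drawn.

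The proximal tubule programme was lower throughout. Of 28 proximal transport genes 27 fell and 0 rose (median -1.73), and of 30 proximal metabolism genes 28 fell and 1 rose (median -2.07). Slc34a1, the phosphate carrier of the brush border, stood at 1668, 1221, 2415 and 615 CPM in the injured and 4839, 5595, 4709 and 4828 CPM in the contralateral libraries. All injured values were below all contralateral values, with injured library 4 the lowest (log2 -1.75, SE 0.39, adjusted p = 0.00646). These calls depended on the spread used. In a fit of all 32 libraries of the series, in which all groups share 1 estimate of the spread, 1 proximal transport gene and 3 proximal metabolism genes were called lower, while the medians were -1.71 and -2.04. In that fit 24.8% of genes tested were higher and 19.6% lower, and Slc34a1 stood at -1.73 with an SE of 1.28 (adjusted p = 0.285). Libraries of other groups, some known from earlier work on these data not to carry a kidney profile, enter that shared estimate. Totals of the 32 libraries ran from 0.592 M to 37.9 M counts. The fit of 24 libraries called 28 proximal transport and 29 proximal metabolism genes lower, and 5427 of all 16989 genes tested. The organic anion carrier Slc22a8 fell with log2 -2.36, the fatty acid carrier Slc27a2 with -2.24, the dicarboxylate carrier Slc13a3 with -2.16 and the glucose carrier Slc5a2 with -1.45.

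Lrp2, the endocytic receptor megalin, stood at 3949, 3404, 5871 and 1579 CPM in the 4 injured and at 9866, 3414, 11003 and 11118 CPM in the 4 contralateral libraries. Contralateral library 2 lay inside the injured range, and the gene was not called (log2 -1.26, SE 0.50, adjusted p = 0.0617). Without that library Lrp2 fell with log2 -1.53 (adjusted p = 0.0183). Its partner Cubn fell with log2 -1.37 (adjusted p = 0.0255). Cubn lost the call without injured library 1, 2 or 4 or contralateral library 1 or 4, with values of -1.10 to -1.42.

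Kap, the androgen-regulated protein that is among the most abundant transcripts of mouse proximal tubule, stood at 3552, 1697, 2834 and 805 CPM in the injured and 12647, 32533, 7629 and 9574 CPM in the contralateral libraries. The groups were apart, with contralateral library 2 by far the highest of its group (log2 -2.81, SE 0.60, adjusted p = 0.00651), and without it the difference of Kap was -2.17. Hpd, an enzyme of tyrosine breakdown, stood at 3.14, 2.95, 6.38 and 1.24 CPM in the 4 injured and at 14.3, 60.7, 28.6 and 42.4 CPM in the 4 contralateral libraries, with no overlap (log2 -3.41, SE 0.52, adjusted p = 0.00198). Miox, the first enzyme of inositol breakdown, and Ttc36 fell with log2 -2.58 and -2.81. Cyp4a14, a fatty acid hydroxylase, fell with log2 -3.00 (adjusted p = 0.0356) with overlapping groups, and stood at -3.94 without injured library 3. It lost the call when any 1 of injured libraries 1, 2 and 4 and contralateral libraries 3 and 4 was left out, at -2.49 to -2.89. Pck1, the gatekeeper of glucose synthesis, was not called (log2 -0.96, adjusted p = 0.069).

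Cyp27b1, the enzyme that activates vitamin D, was the exception in this list, at 45.9, 41.6, 122 and 38.5 CPM in the injured and 19.7, 18.5, 30 and 44.7 CPM in the contralateral libraries. Injured library 3 was far above all others, the remaining values overlapped, and the gene just passed (log2 1.14, SE 0.42, adjusted p = 0.049). Without injured library 3 Cyp27b1 stood at 0.59 (adjusted p = 0.144) and without contralateral library 2 at 0.97 (adjusted p = 0.12), and it was also not called without injured library 1 or contralateral library 1 or 3, at 1.28, 0.99 and 1.16.

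Genes for burning fuel fell with it. Of 26 fatty acid oxidation genes 23 fell and 0 rose (median -1.36), and of 28 respiratory chain and citrate cycle genes all 28 fell (median -1.52). Acadm, the medium-chain dehydrogenase, stood at 199, 172, 246 and 101 CPM in the 4 injured and at 648, 862, 655 and 668 CPM in the 4 contralateral libraries, with a wide gap between the groups (log2 -1.98, SE 0.26, adjusted p = 0.00106). Cox4i1, a subunit of cytochrome oxidase, stood at 179, 166, 225 and 129 CPM in the injured and 515, 1058, 395 and 497 CPM in the contralateral libraries, again with no overlap (log2 -1.82, SE 0.32, adjusted p = 0.00271). Ppara, the receptor that induces fatty acid oxidation, fell with log2 -1.33, while its coactivator Ppargc1a was not called at -0.19. Cpt1a, the entry step into mitochondria, fell with -0.79, and was not called without injured library 2 (-0.70, adjusted p = 0.0645).

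Many of these transcripts are short, and contralateral library 2 held more of short transcripts. Over the genes under 1000 bases with a mean log2 CPM of 1 or more, the median injury difference was -0.68, or -0.38 without that library. The respiratory list had a median of -1.23 without it, and of -1.03 when each library was adjusted for a trend on transcript length, a setting in which 30.1% of all genes were higher and 24.8% lower. Proximal metabolism stood at -1.79 and -1.67 in the same settings, and proximal transport at -1.63 in both. With the length adjustment the collagens, whose transcripts are long, stood at a median of 1.33 instead of 1.64, with 15 higher and 2 lower. Of 13 podocyte genes 9 were then higher and 1 lower, at a median of 1.33. The length adjustment moved 28 named genes by more than 1.5 times, all toward higher values in the injured kidney: Kap stood at -1.93, the oxidase subunit Cox5b at -1.02, Miox at -1.89, Ttc36 at -1.99 and Pvalb at -1.93, and of the genes that rose Ccl2 stood at 4.40, Timp1 at 3.13 and H2-Aa at 2.75.

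Glycolysis and hypoxia genes were mixed, with 3 of 18 higher and 9 lower (median -0.73). Hk2, the inducible hexokinase, stood at 25.2, 46.6, 26.2 and 35.3 CPM in the 4 injured and at 2.06, 2.22, 9.63 and 1.23 CPM in the 4 contralateral libraries. Every injured value was above every contralateral one, although contralateral library 3 was far above the rest of its group (log2 3.14, SE 0.57, adjusted p = 0.00339), and Hk2 stood at 4.16 without it. The lactate exporter Slc16a3 and the phosphofructokinase Pfkp rose by 1.43 and 1.23. Car9, a carbonic anhydrase induced by hypoxia, stood at 2.85, 2.15, 1.69 and 0.709 CPM in the injured and 11.8, 11, 6.17 and 8.38 CPM in the contralateral libraries, lower in all injured libraries (log2 -2.33, SE 0.39, adjusted p = 0.00243). The glycolytic enzyme Gapdh fell with log2 -1.41, and Bnip3, a hypoxia-induced gene of mitochondrial turnover, with -1.34. Cholesterol synthesis genes fell in 10 of 19 (median -0.78, or -0.50 without contralateral library 2), led by Mvd at -1.81 and Cyp51 at -1.68, while their regulator Srebf2 was not called at 0.11.

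Distal segments were less affected than the proximal tubule in these counts, and the difference between segments was not tested. Of 12 thick ascending limb genes 6 fell and 0 rose (median -0.60). Egf, the growth factor precursor made there in quantity, stood at 363, 455, 1015 and 432 CPM in the 4 injured and at 2128, 1156, 2496 and 2266 CPM in the 4 contralateral libraries, and injured library 3 was the highest of the injured and still below the contralateral range (log2 -1.83, SE 0.38, adjusted p = 0.0049). Slc12a1, the salt carrier that defines the segment, stood at 756, 1551, 1618 and 1207 CPM in the injured and 1351, 910, 1797 and 1362 CPM in the contralateral libraries, with overlapping groups and no call (log2 -0.08, SE 0.30, adjusted p = 0.84). Umod, the gene for uromodulin, fell with log2 -0.76 close to the threshold (adjusted p = 0.0465), a call lost in 11 of 18 alternative settings, among them each library left out except injured library 3 and contralateral library 2 (-0.62 to -0.83).

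Of 10 distal convoluted tubule genes 7 fell and 0 rose (median -1.22). In the fit of all 32 libraries 3 of these and 0 of the thick ascending limb genes were called, with medians of -1.21 and -0.59. In the fit of 24 libraries 8 genes were lower and 1 higher in each of the 2 lists. Pvalb is the calcium-binding parvalbumin of the early distal convoluted tubule. It stood at 1.51, 2.37, 3.98 and 1.9 CPM in the injured and at 15.1, 29, 8.56 and 11.3 CPM in the contralateral libraries. The groups did not overlap (log2 -2.71, SE 0.43, adjusted p = 0.00209). The salt carrier Slc12a3 fell with log2 -1.31 and calbindin, Calb1, with -1.61. Slc12a3 lost the call without injured library 1, 2 or 4 or contralateral library 1 or 4, at -1.12 to -1.29. In the collecting duct 2 of 11 principal cell genes fell (median -0.31), and of 11 intercalated cell genes 1 rose and 2 fell (median -0.22), or 2 and 1 without contralateral library 2. Aqp2, the water channel under vasopressin, stood at 61, 92.7, 243 and 58.7 CPM in the injured and 103, 117, 209 and 85.5 CPM in the contralateral libraries, with no call (log2 -0.17, SE 0.48, adjusted p = 0.773). Aqp4, the channel of the basolateral side, stood at 5.78, 4.11, 11.2 and 3.1 CPM in the 4 injured and at 49.1, 64.4, 106 and 52.5 CPM in the 4 contralateral libraries, far below the contralateral range in every injured library (log2 -3.49, SE 0.40, adjusted p = 0.000806). Avpr2, the vasopressin receptor, fell with log2 -1.41.

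Podocyte genes were higher rather than lower. Of 13 genes 9 rose and 0 fell (median 1.19). Plce1, a phospholipase of the filtration barrier, stood at 38.9, 84.6, 74.8 and 87.6 CPM in the injured and 16, 9.6, 17.5 and 17.1 CPM in the contralateral libraries, with no overlap (log2 2.25, SE 0.28, adjusted p = 0.000884). The podocyte transcription factor Wt1 rose by 1.75, Ptpro by 1.77, Synpo by 1.61 and nephrin, Nphs1, by 1.53, and the list median was 0.45 in injured library 1 against 1.43 to 1.56 in the other injured libraries. Endothelial genes did not move as a group, with 0 of 15 higher and 1 lower (median -0.03). The single fall was in Plvap, the diaphragm protein of fenestrated vessels, at 40.7, 54, 37.1 and 43.7 CPM in the 4 injured and at 116, 94.5, 43.4 and 88.1 CPM in the 4 contralateral libraries, where contralateral library 3 overlapped the injured libraries (log2 -0.96, SE 0.27, adjusted p = 0.0155). Pecam1 and Kdr were not called, at log2 0.22 and -0.64. With the length adjustment Plvap was not called either (log2 -0.67, adjusted p = 0.0574), and 3 of the 15 endothelial genes were higher and 1 lower.

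**Figure D4:**
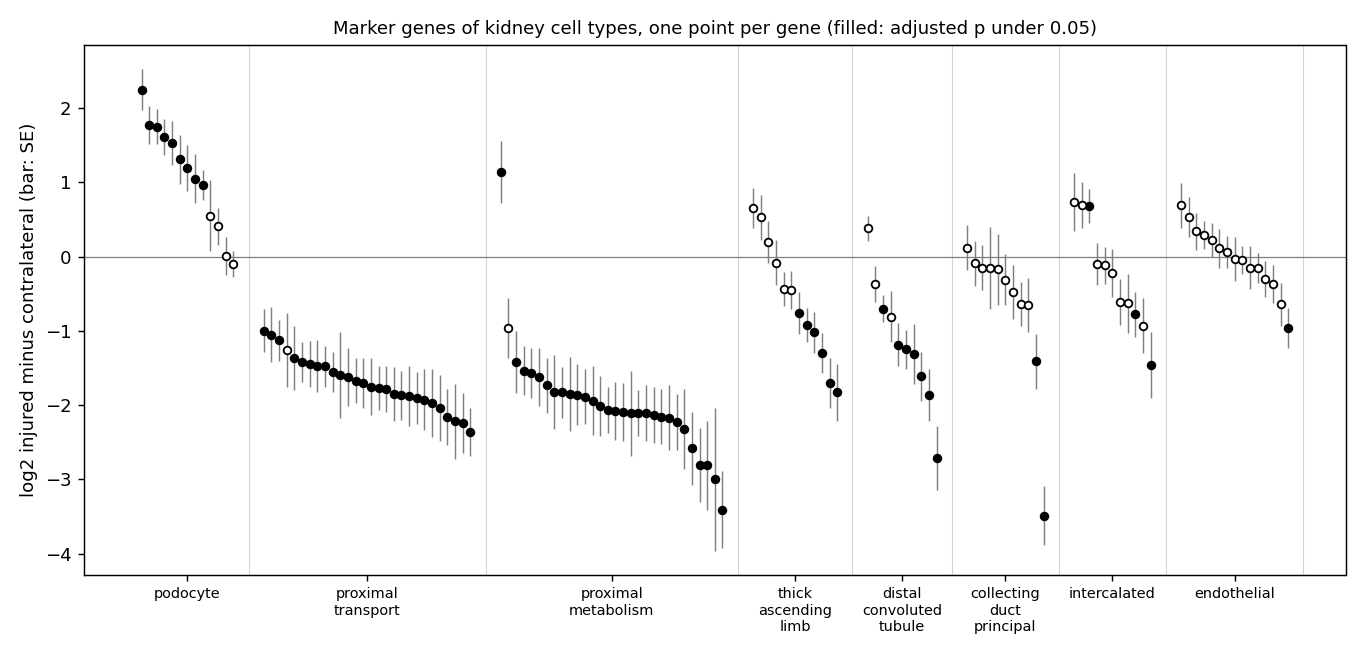
Log2 injured minus contralateral difference with its SE for each marker gene of 8 lists of kidney cell types, filled where the adjusted p was under 0.05. Proximal genes lie below 0 except Cyp27b1 at 1.14, podocyte genes lie mostly above 0, from -0.10 for Clic5 to 2.25 for Plce1, and the other lists reach down to -3.49 for Aqp4.

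Outside the lists, the largest rise was in Gabrp, a GABA receptor subunit found in secretory epithelium, at 26.2, 57.9, 29.6 and 42.7 CPM in the injured and 0.213, 0.0739, 0.557 and 0.0439 CPM in the contralateral libraries. Every injured value was far above every contralateral value (log2 7.42, SE 0.59, adjusted p = 0.000186), and without contralateral library 3 the difference of Gabrp was 8.34. Adcy8, a calcium-stimulated adenylate cyclase, stood at 6.07, 3.4, 2.17 and 5.01 CPM in the 4 injured and at 0.0355, 0, 0.0398 and 0.0439 CPM in the 4 contralateral libraries, from 389 against 3 counts, a ratio of 142 with a 95% counting interval of 48.2 to 691. Other large rises were the protease inhibitor gene Serpina3i at 5.98, whose reads may be shared with close copies, Crisp1 at 5.77, which moved by more than 1.5 times without contralateral library 3, the sodium channel Scn3a at 5.44 and Rgs1, a lymphocyte regulator of chemokine receptors, at 5.26.

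Large falls outside the lists included the steroid-converting enzyme Akr1c18 at log2 -3.46, the small GTPase Rhov at -3.42 and Apom, the apolipoprotein that carries sphingosine phosphate, at -3.20. Tnn, tenascin N, stood at -3.18 and at -2.45 without contralateral library 3. Falls in Cyp2d12 (-3.26), Mettl7a2 (-3.26), Methig1 (-3.24) and Ceacam2 (-3.37) concern members of families of close copies, so the counts of each are uncertain, and Ceacam2 stood at -4.09 without injured library 2. Eif3j2, a near copy of Eif3j1, and 1 of the 2 gene entries named Gcat are uncertain for the same reason, with 40 against 1011 counts and 35 against 465. Of the 465 contralateral counts of Gcat 258 came from contralateral library 2, and without it Gcat was not called (log2 -2.90, adjusted p = 0.0537).

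The 4 injured libraries lay at different distances from the contralateral ones. Injured library 3 was the nearest to the contralateral mean in 61.8% of the genes that rose and 65.6% of those that fell, and injured library 4 the furthest in 52.2% and 69.9%. Injured library 1 departed from this order, with the highest B and plasma cell median and the lowest podocyte and collecting duct medians, -1.09 for the latter. Markers of other tissues were uneven. The summed adipocyte list stood at 6.45, 48.3, 40.2 and 0.576 CPM in injured libraries 1 to 4 and at 0.320, 0.443, 149 and 0.702 CPM in contralateral libraries 1 to 4, with 0 of its 4 tested genes called. Contralateral library 3, with the highest adipocyte sum, is also the library with the high Lcn2 and Hk2 values, and the part of fat tissue in them was not tested. The summed heart list was 12.2 to 15.4 CPM in the injured and 7.46 to 12.7 CPM in the contralateral libraries, with Tnnt2 and Myh6 called (1 gene of the list without contralateral library 2) at up to 3.22 CPM. The summed erythroid list, mostly globin, stood at 617, 762, 329 and 419 CPM in injured libraries 1 to 4 and at 1052, 1587, 214 and 982 CPM in contralateral libraries 1 to 4, lowest in contralateral library 3. edgeR called 0 of its 5 genes, and of the adrenal cortex list only Star was tested, and rose by 0.95. The 4 Y-linked genes of the list were expressed in all 8 libraries and were not called.

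The injury response was then set against that of the other arms, in a fit of 24 libraries. In the wild-type arm, C57/BL6 mice given tamoxifen, the same operation was compared with the contralateral kidney. Of 16989 genes tested, the response differed in 23 (0.135%), 22 (0.129%) higher and 1 (0.00589%) lower in the floxed vehicle arm. Plk3, a stress-activated kinase, stood at 119, 76, 196 and 44.4 CPM in the injured and 9.72, 7.83, 11.9 and 8.87 CPM in the contralateral libraries of the floxed vehicle arm. In the wild-type arm it stood at 8.13, 7.58, 5.93 and 6.91 CPM in the injured and 14.5, 10.6, 6.38 and 5.55 CPM in the contralateral libraries. The 4 injured libraries of the floxed vehicle arm lay above all other libraries of both arms in Plk3, with a difference of responses of 3.88 (SE 0.58, adjusted p = 0.00777). The phosphodiesterase Pde10a differed by 2.26, the bradykinin receptor Bdkrb2 by 2.20, the phosphatase Dusp8 by 1.83 and the cyclic AMP-responsive factor Crem by 1.73, and Sept4 by -1.20. The count was 6 to 36 with each library left out in turn. Genotype and tamoxifen both differ between these arms and cannot be told apart.

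Mice of the same genotype that did receive tamoxifen, here the labelled Ihh-deleted arm, differed in 781 genes (4.6%), of which 246 (1.45%) had a response higher in the floxed vehicle arm and 535 (3.15%) lower. Of 13 podocyte genes 5 were higher, among them Wt1, with a response of 1.73 against 0.40 (difference 1.33, SE 0.30, adjusted p = 0.0226). Of 22 matrix genes 3 were higher: Fbn1 by 1.68, Lox by 1.39 and Loxl2 by 1.24. Among collagens Col6a3 was higher by 1.67 (adjusted p = 0.042), and outside the lists Col8a2 by 2.49. Cx3cr1, the fractalkine receptor of resident macrophages, responded by 1.77 here and by -0.22 there (difference 1.99, SE 0.55, adjusted p = 0.0467).

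Of 28 respiratory genes 5 fell further in the floxed vehicle arm. Cox5b differed by -1.64, Ndufb8 and Cox6c by -1.58 each, Cox7b by -1.45 and Atp5o by -1.41. So did 3 of 26 fatty acid oxidation genes, with Acadm at -1.46 (adjusted p = 0.0259). Contralateral library 2 held the most of all 5 respiratory genes, with Cox5b at 118 CPM against 33.6 to 53 in the other contralateral libraries of this arm. It held the least Nphs1, at 15.2 CPM against 21.8 to 27.4, and Fbn1, at 22 against 30 to 48.7. The length adjustment was not made for differences between arms, and the part of this library in them was not tested. Against the wild-type arm edgeR's test called 0 of 30 TNF and NF-kB genes (median difference 0.37, 5 at an unadjusted p under 0.05) and 0 of 15 Hedgehog genes (median -0.08, 0 at an unadjusted p under 0.05), and DESeq2 called 0 in both lists. Against the labelled Ihh-deleted arm edgeR called 0 in both, with medians of 0.21 and 0.32, while 4 TNF and NF-kB genes and 6 Hedgehog genes had an unadjusted p under 0.05 and DESeq2 called 1 and 4. The count of 781 was unstable: it was 468 without contralateral library 2, 93 without labelled Ihh-deleted contralateral library 4, 95 without injured library 4 and 2193 without labelled Ihh-deleted injured library 4. Tamoxifen and the Ihh allele differ together between these arms and cannot be told apart.

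**Figure D5:**
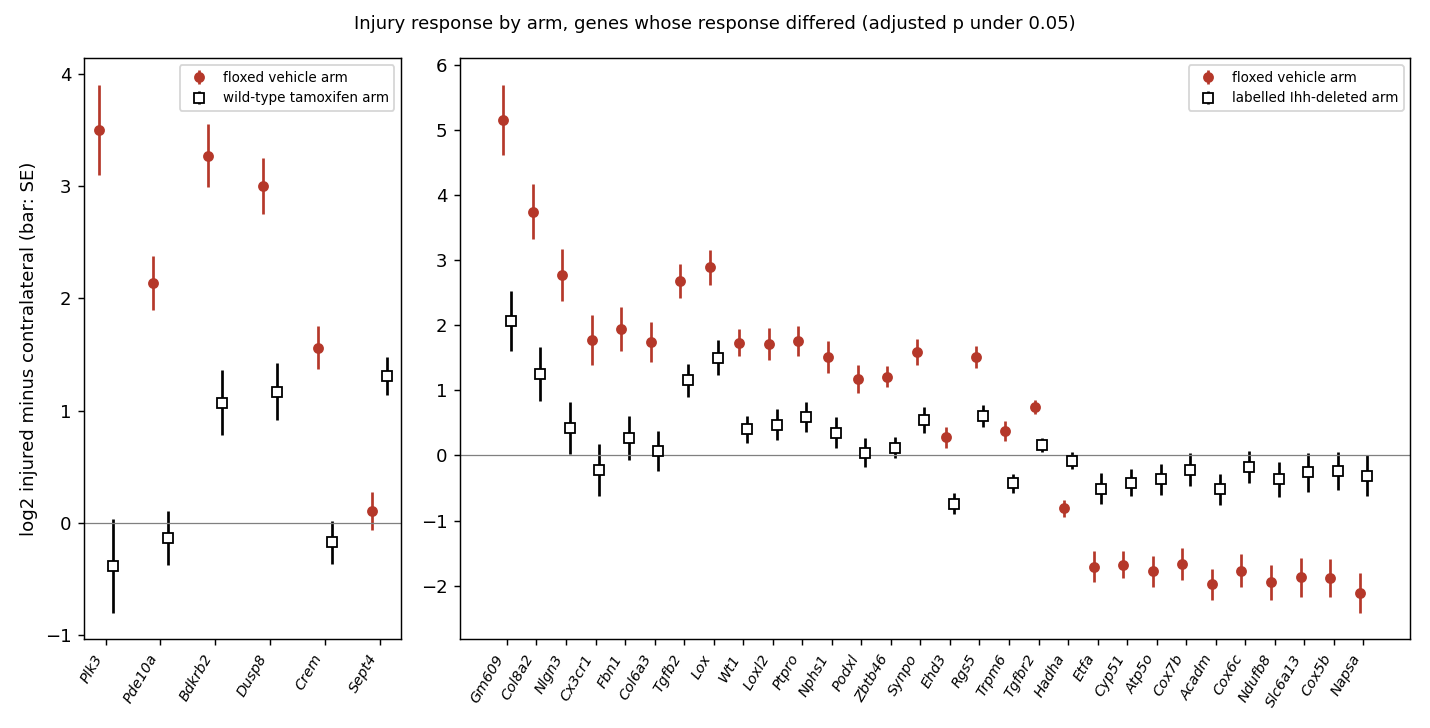
Log2 injured minus contralateral difference with its SE in the floxed vehicle arm (red circles) and in the wild-type tamoxifen arm (left panel) or labelled Ihh-deleted arm (right panel, black squares), for genes whose response differed at an adjusted p under 0.05. Only part of the genes called is drawn: on the left those with the largest differences, on the right list members with Col8a2, Gm609 and Nlgn3. Plk3 stands at 3.50 against -0.38 on the left. Of the genes drawn on the right, the red circles lie above the squares for matrix and podocyte genes and below them for mitochondrial genes.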

How the data were processed

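The bulk table as deposited holds expected counts per transcript, made with Salmon 1.4 per the submitters' processing notes, which also name GRCm38 and mm10. For the index and options, nothing is given in the sources used here. Of 105833 transcripts, 105281 matched GENCODE M21. The 552 others, 0.185% of counts, were left out. Summing transcripts gave estimated counts for 33714 genes, which were rounded to whole numbers; gene IDs that share a symbol (36 symbols) stayed separate. Of the positive values 83.2% were not whole (tolerance 1e-6).

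Tests used edgeR 4.0.16 in R 4.3.3 on the 8 libraries: filterByExpr, TMM factors, glmQLFit, quasi-likelihood F test and Benjamini-Hochberg adjustment, threshold 0.05. Differences between arms were interaction terms in a fit of 24 libraries, those of the 3 injury arms. Within the injured and within the contralateral group of this arm, no library was a copy of another (lowest chi-square per gene 22). Other pairs of libraries were not checked. On simulated counts for the injury comparison (15986 genes), 33 of 100 genes changed 2-fold and 88 of 100 changed 4-fold were recovered. For the arm difference (16989 genes) 29 and 78 of 100 were recovered. The other genes were left unchanged. Recovery with a share of changed genes as large as the 52.7% called between the kidneys was not tested. Counting intervals cover counting error only.

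Members and gene lists were chosen with earlier results of these data known. The rule named 11 Hedgehog, injury and scar genes, the 12 protein-coding genes per direction with the largest log2 difference with no overlap and a mean log2 CPM of 1 or more, 5 per direction for each arm difference, up to 4 members per list with the largest difference and up to 3 against its direction; others were chosen after their values were seen. Alternatives were RLE factors, no filter on low counts, DESeq2 1.42.0 (Wald test), a replicate block, leaving out each library, and fits of 24 or 32 libraries. A transcript length offset and pairs of settings without contralateral library 2 were added after the data were seen. Some genes have no promoter entry, among them Cxcl5 and Ccl2. A few genes that the lists count are not reported here by name.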

Additional observations from a re-analysis of the deposited data

Results flagged for a closer look

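Single libraries stood far from the other 3 of their group in 8 of 94 groups of 4 values examined. Contralateral library 2 accounts for 4 of these: Tnf at 0.96 CPM, Slc34a1 at 5595 CPM and Acadm at 862 CPM, all above the rest, and Lrp2 at 3414 CPM, below it. Contralateral library 3 was high in Lcn2, at 19.7 CPM, and in Hk2, at 9.63 CPM. Injured library 3 was high in Cyp27b1, at 122 CPM, and in Egf, at 1015 CPM. The expected rate of such values was not tested, because the genes share libraries and some were chosen after their values were seen.

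Some injury responses differed between arms by a test of the difference itself. Against the wild-type tamoxifen arm the response in the floxed vehicle arm was higher in Plk3 by 3.88, Pde10a by 2.26, Bdkrb2 by 2.20, Dusp8 by 1.83 and Crem by 1.73 on the log2 scale, and differed in Sept4 by -1.20. Against the labelled Ihh-deleted arm it was higher in Col8a2 by 2.49, in the neuronal adhesion gene Nlgn3 by 2.35, in the predicted genes Gm609 by 3.09 and Gm48499 by 2.93, and in the first of the gene IDs named Fam220a by 4.58. It was lower in Eif3j2 by -6.32, in the other Fam220a ID by -4.09 and in the predicted genes Gm28439 by -9.06 and Gm20594 by -4.21. Eif3j2, Fam220a and the predicted genes may share reads with close copies. These arms differ in genotype or tamoxifen, which cannot be told apart.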

How the results depend on the processing

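The count of injury genes stayed within 1.5 times its value in all 18 alternatives, from 6675 genes with 1 library left out to 11146 in the fit of 24 libraries, and it was 7262 with the replicate block. Correlations between same-numbered libraries of the 2 kidneys were 0.18, -0.27, 0.19 and 0.03, within the -0.36 to 0.28 of libraries with unlike numbers. With so few libraries, 1 of them with a length trend, this cannot decide whether column numbers pair the kidneys. The difference from the wild-type tamoxifen arm rose from 23 genes to 150 with DESeq2, fell to 13 with the replicate block and ran from 6 to 36 with each library left out. That from the labelled Ihh-deleted arm went from 781 genes to 1869 with DESeq2, to 401 without the filter on low counts, to 78 with the replicate block and from 93 to 2193 with each library left out. The cause was not tested.

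Of 3456 values of named genes under these alternatives 0 reversed, 120 lost the call and 64 gained it. A change of sign was counted as reversed only where the main or the alternative value passed the threshold. The fit of 32 libraries held 41 of the losses, among them Slc34a1, Kap, Egf, Hk2, Timp3, Sufu, Cfb and Rgs5. Of the 167 named genes called, 15 lost the call when 1 library was left out, among them Igfbp7, Tnfrsf1a, Cubn, Cyp4a14, Slc12a3, Slc4a1, Hmx2 and Atp6v0d2. Of 1782 list counts and medians 154 moved. Changes of sign were not counted for lists, and the endothelial median went from -0.03 to 0.08 without contralateral library 2. The fit of 32 libraries took proximal transport from 27 genes called lower to 1 and proximal metabolism from 28 to 3. The fit of 24 libraries called 28 and 29 of them lower. Genes of few counts, such as Tnf, Il6, Ccl20 and Adcy8, are limited by depth.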

Other observations

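The gene symbol Fam220a belongs to 2 gene IDs whose counts change places between the kidneys. The first ID held 87.2%, 89.2%, 88.2% and 89.4% of their summed CPM in injured libraries 1 to 4 and 5.08%, 4.66%, 9.59% and 9.26% in contralateral libraries 1 to 4. The sum itself was 18.3 to 21.5 CPM in the injured and 14.6 to 25 CPM in the contralateral libraries of the floxed vehicle arm. In the wild-type tamoxifen arm the share was mixed within groups, at 21.7%, 90.8%, 92.6% and 17% in the injured and 9.38%, 82.7%, 10.2% and 75.1% in the contralateral libraries. In the labelled Ihh-deleted arm it was 20.3%, 40.5%, 9.42% and 66.2% in the injured and 81.4%, 86.1%, 5.99% and 77.1% in the contralateral libraries. Whether these shares bear on the identity of the animals or libraries behind the labels was not tested.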
